A study of Mus musculus with 12 samples.

Results

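Neuropeptides, pituitary hormones and granins are secreted proteins that neurons and endocrine cells pack into dense-core vesicles. A list of 37 genes of these families was followed here by matching the gene symbol in the deposited count table, and all 37 were found among its 55450 genes. Total RNA was sequenced from 2 tissues, brain and liver, of males 7 to 9 weeks old. The animals were wild type (Vaultrc5+/+, flx in the sample titles) or Vaultrc5-/-, lacking the gene of a short vault RNA that encodes no protein. The 12 libraries form 4 groups of 3, 1 for each tissue and genotype, and the labels name no treatment. The strain, the way the knockout was made, and whether an animal gave both tissues are not given in the sources used here. Nor do the labels say that the 3 libraries of a group came from 3 animals, so p-values measure the spread between these libraries, which may be technical in part. Values given below for wild-type mice, and n = 3, likewise refer to the 3 libraries of a group.

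A neuropeptide is made as a longer precursor. Prohormone convertases (Pcsk1, Pcsk2) cut it at basic residues inside the vesicle, carboxypeptidase E (Cpe) trims the ends, and Pam amidates many of the products. Granins (Chga, Chgb, Scg2 and relatives) are acidic proteins that help to form the vesicle core and are themselves cut into peptides. Some neuropeptides are made by widespread neurons, such as interneurons of the cortex or projection neurons of the striatum. Others come from small groups of hypothalamic neurons, and growth hormone and prolactin come from the pituitary, a gland below the hypothalamus.

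Brain libraries totalled 14844971 to 18567381 counts, and liver libraries 23247449 to 27155480. The brain libraries differed in the regions their markers show. The sum of 9 cerebellar markers was 2211 and 2053 CPM (each library's counts over its total, in the usual CPM unit, with TMM scaling within a tissue) in replicate 1 of the wild type and of the knockout, 48.3 and 47.2 CPM in the replicates numbered 2, and 520 and 866 CPM in those numbered 3. Knockout brain replicate 3 stood apart: 9 pancreatic markers summed to 3905 CPM there, with 18998 counts of the digestive enzyme gene Ctrb1 and 138 of the insulin gene Ins2, against at most 1.05 CPM in the other brain libraries. The knockout comparison in brain, and the spread over brain libraries, were therefore also computed without that library. All 6 neuronal markers exceeded 3 counts in every brain library. The sum of 6 hepatocyte markers was at least 973330 counts in each liver library and at most 1.84 CPM in brain. In such bulk tissue, fewer cells of a type and less RNA per cell cannot be told apart.

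A group of 10 genes stood above the rest in brain. Levels were compared between genes as CPM per kb of exon, since a longer transcript gives more reads. The length was that of all annotated exons of a gene together (3402 bases for Vip), which can exceed that of a single transcript and so lower the value. These were Cck (97.9 CPM per kb as the mean of 6 brain libraries), Chgb (75.9), Scg3 (73.5), Scg5 (63.1), Sst (61.4), Npy (57.9), Scg2 (49.8), Vgf (46.4), Penk (41.3) and Chga (32.2). They comprise 6 granin-family genes (with Vgf and the convertase chaperone Scg5 counted among them) and the precursors of cholecystokinin, somatostatin, neuropeptide Y and the enkephalins. Neighbours in this order overlapped in their ranges over libraries, except Scg3 (lowest 71.2) and Scg5 (highest 68.2). Below them was a gap: the gene next in order, Vip, was at 4.76 CPM per kb with a highest library of 7.09, and the lowest library of Chga was at 27.1. The nearest values across the gap were the lowest library of Penk, 14.2 CPM per kb, and the highest of Gh, 9.32. The gap depends on this scale. Without division by length, the mean was 16.2 CPM for Vip and 32.8 CPM for Npy, the lowest of the 10, and their ranges over libraries overlapped.

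**Figure D1:**
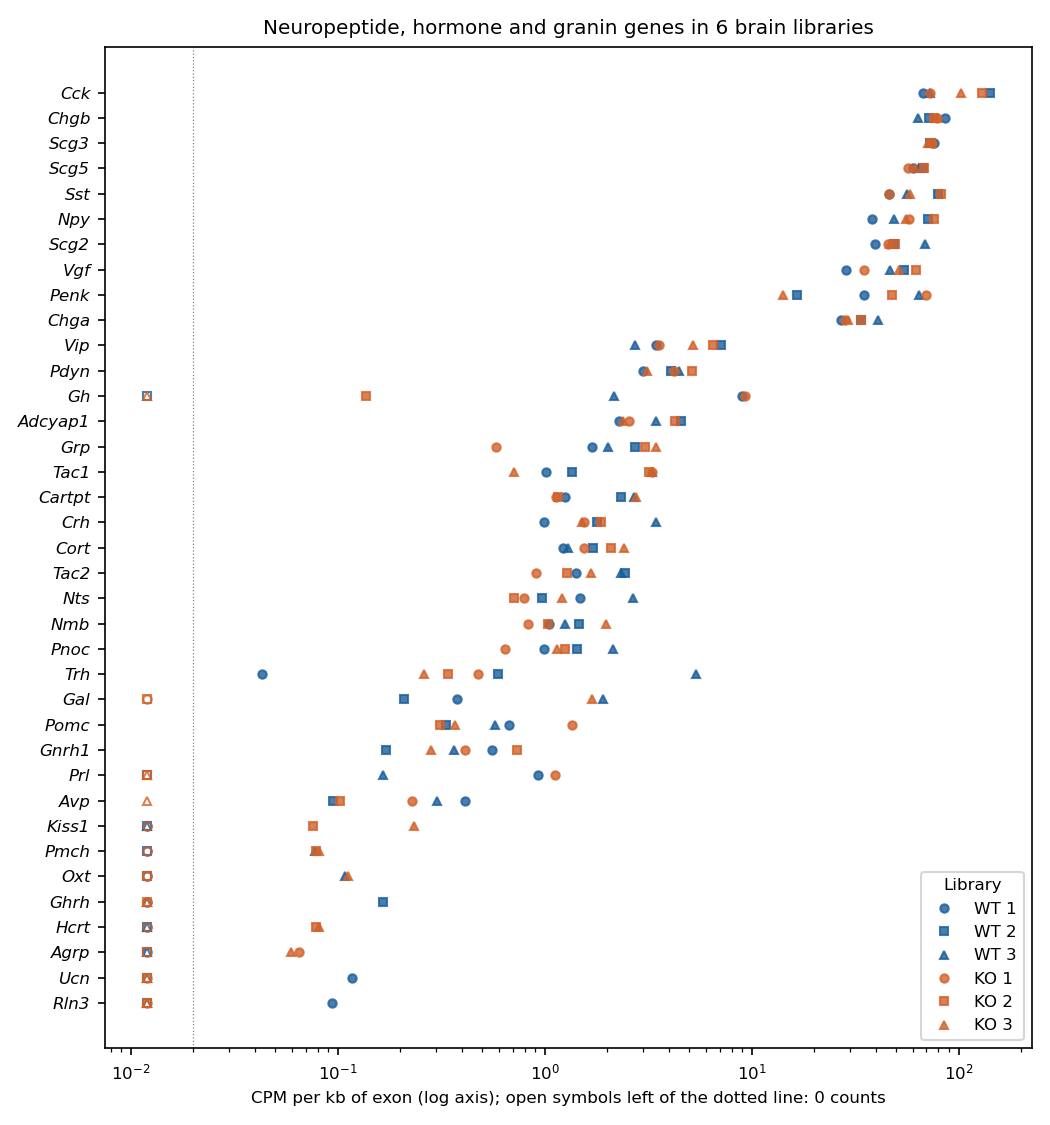
Level of each of the 37 genes in the 6 brain libraries, in CPM per kb of exon on a log axis, ordered by mean. Each symbol is 1 library (blue, wild type; orange, knockout; circle, square and triangle for replicates 1, 2 and 3) and open symbols at the left mark 0 counts; 10 genes from Cck to Chga lie above the rest, and at the bottom lie 7 genes that never passed 3 counts.

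Scg3, Scg5, Chgb and Chga had the smallest ratios of highest to lowest library among the 23 list genes with at least 3 counts in every brain library. Scg3, which binds chromogranin A in the vesicle, was at 209, 199 and 200 CPM in wild-type brain replicates 1 to 3 and at 203, 201 and 195 CPM in the knockout. The groups overlapped, and the highest library was 1.07 times the lowest. Among the genes within 2-fold of its mean level, 98.2% had a larger ratio. Scg5 (the chaperone of Pcsk2) spanned 89.1 to 107 CPM, a ratio of 1.20, and Chgb spanned 175 to 236 CPM, a ratio of 1.35. Chga had 1.51 and Scg2 1.74. Of genes at a similar level, 68.7% had a larger ratio than Scg5, 39.6% than Chgb, 23.2% than Chga and 14.0% than Scg2, so that of these genes only Scg3 and Scg5 were more even than most genes of their level. Vgf, a neurotrophin-induced precursor, varied more: it was at 85.2, 162 and 139 CPM in wild-type mice and 104, 184 and 154 CPM in the knockout, a ratio of 2.16, which 5.85% of genes at its level exceeded. In both genotypes the replicate numbered 1 was the lowest for Vgf and that numbered 2 the highest.

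Promoters were compared for a known control element of this family, the cyclic AMP response element, known from the somatostatin gene. The 250 bases before the RefSeq start (GRCm38.p6) were available for 29 of the 37 genes. The letters TGACGTCA, which read the same on both strands, were present for 5 of them, or 17.2%, against 1.77% of the 27025 genes with such a promoter sequence. The shorter TGACG, which is contained in TGACGTCA, was found on either strand for 18 of the 29 (62.1%) and for 19.8% of the 27025. The letters TATAAA on either strand, the other motif searched, were found for 8 of the 29 (27.6%) and for 14.3% of the 27025. These motifs were chosen with the genes known. The 5 stretches of 30 bases are shown on the coding strand of their gene to compare the bases beside the element, which is in capitals.
Sst: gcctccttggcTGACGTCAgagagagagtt
Scg2: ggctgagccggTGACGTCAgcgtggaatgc
Chgb: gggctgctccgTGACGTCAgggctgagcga
Cartpt: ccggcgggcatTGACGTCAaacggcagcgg
Ucn: atgttcttcgcTGACGTCAgtcggagctgt
They lie at chr16:23890874-23890903 (minus strand), chr1:79440076-79440105 (minus), chr2:132781559-132781588 (plus), chr13:99900777-99900806 (minus) and chr5:31138921-31138950 (minus). The element begins 48, 68, 72, 112 and 44 bases before the RefSeq start in the order shown. In GENCODE M21 (GRCm38) all but the Ucn stretch overlap an exon of a longer transcript of the same gene. The 5 genes do not share a level: Sst, Scg2 and Chgb belonged to the upper 10, Cartpt was at 1.89 CPM per kb, and Ucn had 1 count in all 6 brain libraries together. A match of letters is a description, not a site.

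The peptides of cortical interneurons and pyramidal cells varied by library. Cck, the cholecystokinin precursor, was at 88.4, 185 and 95.5 CPM in wild-type replicates 1 to 3 and at 94.5, 169 and 134 CPM in the knockout. Wild-type replicate 2 and knockout replicate 2 were the highest, and the genotypes overlapped. Vip, the precursor of vasoactive intestinal peptide, was at 11.8, 24.1 and 9.33 CPM in wild-type mice and 12.2, 22.0 and 17.7 CPM in the knockout. Sst, made by inhibitory neurons, was at 33.4, 57.4 and 40.8 CPM in wild-type mice and 33.4, 59.0 and 41.9 CPM in the knockout. For Sst the libraries with the same number were almost equal in both genotypes while the numbers differed by up to 1.77-fold. The summed level of 7 cerebral cortex markers ran in the same order of the 6 libraries as Cck, from 847 CPM in wild-type replicate 2 to 410.5 in wild-type replicate 1. The sum of 5 genes listed as markers of GABA interneurons (Gad1, Gad2, Slc32a1, Lhx6 and Adarb2, of which Gad1, Gad2 and Slc32a1 are shared by GABA neurons of other regions) ran otherwise and was lowest, at 439.7 CPM, in wild-type replicate 2, where Vip was highest.

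Counted over the 23 genes, the 3 highest libraries were wild-type replicate 2 and knockout replicates 2 and 3 for 6 (Cck, Vip, Sst, Vgf, Grp and Cort, the cortistatin precursor). The cortex markers had the same 3 highest libraries, and so had 12.7% of the 18767 genes with at least 3 counts in every brain library. This way of counting was chosen after the values were seen. Another 6 genes (Crh, Pnoc, Adcyap1, Scg2, Chga and Scg5) were highest in wild-type replicates 2 and 3 and knockout replicate 2, as were the microglia markers, against 11.9% of all genes. Tac2, Cartpt and Nmb had wild-type replicates 2 and 3 and knockout replicate 3 (4.44% of all genes). Scg3, Chgb, Pomc, Nts and Npy each had a set of their own, which 4.65%, 11.4%, 12.5%, 3.86% and 4.53% of all genes shared. The marker lists with the set of Scg3 were hepatocytes, with that of Chgb cerebellum and olfactory bulb, with that of Pomc anterior pituitary, choroid plexus, GABA interneurons and astrocytes, and with that of Npy neurons. Among the sets that no list gene had, those of the red blood cell, oligodendrocyte and pancreatic markers were shared by 4.07%, 4.32% and 2.44% of all genes. Npy, the neuropeptide Y precursor, spanned 21.5 to 43.2 CPM and was highest in the replicates numbered 2. Adcyap1, which encodes PACAP, spanned 8.67 to 17.3 CPM with the same 2 libraries on top. The part of regional composition in these differences was not tested.

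The opioid and tachykinin precursors of the striatum formed another pattern. Penk, the proenkephalin gene on chromosome 4 (4133531 to 4138819, GRCm38), was at 57.3, 27.1 and 105 CPM in wild-type replicates 1 to 3 and at 113, 78.4 and 23.1 CPM in the knockout. Tac1, the precursor of substance P on chromosome 6 (7554879 to 7565834), was at 3.44, 4.62 and 11.2 CPM in wild-type mice and 11.2, 10.8 and 2.42 CPM in the knockout. Both were high in wild-type replicate 3 and knockout replicates 1 and 2 and lowest in knockout replicate 3, so the genotypes overlapped over the whole range. The ratio of highest to lowest was 4.90 for Penk, which 0.688% of genes of similar level exceeded, and 4.62 for Tac1, which 2.73% exceeded. Pdyn, the prodynorphin gene, had the same 3 highest libraries over a smaller range of 8.61 to 14.9 CPM. That set of 3 was shared by 3.03% of all genes counted. All 9 striatal markers exceeded 3 counts in every brain library, and their sum was 283, 284 and 516 CPM in wild-type mice and 720 (719.8), 663 and 219.7 CPM in the knockout, highest in the same 3 libraries and lowest in knockout replicate 3. The hypothalamic marker sum had the same 3 highest libraries. The part of striatal tissue in the Penk and Tac1 levels was not tested.

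**Figure D2:**
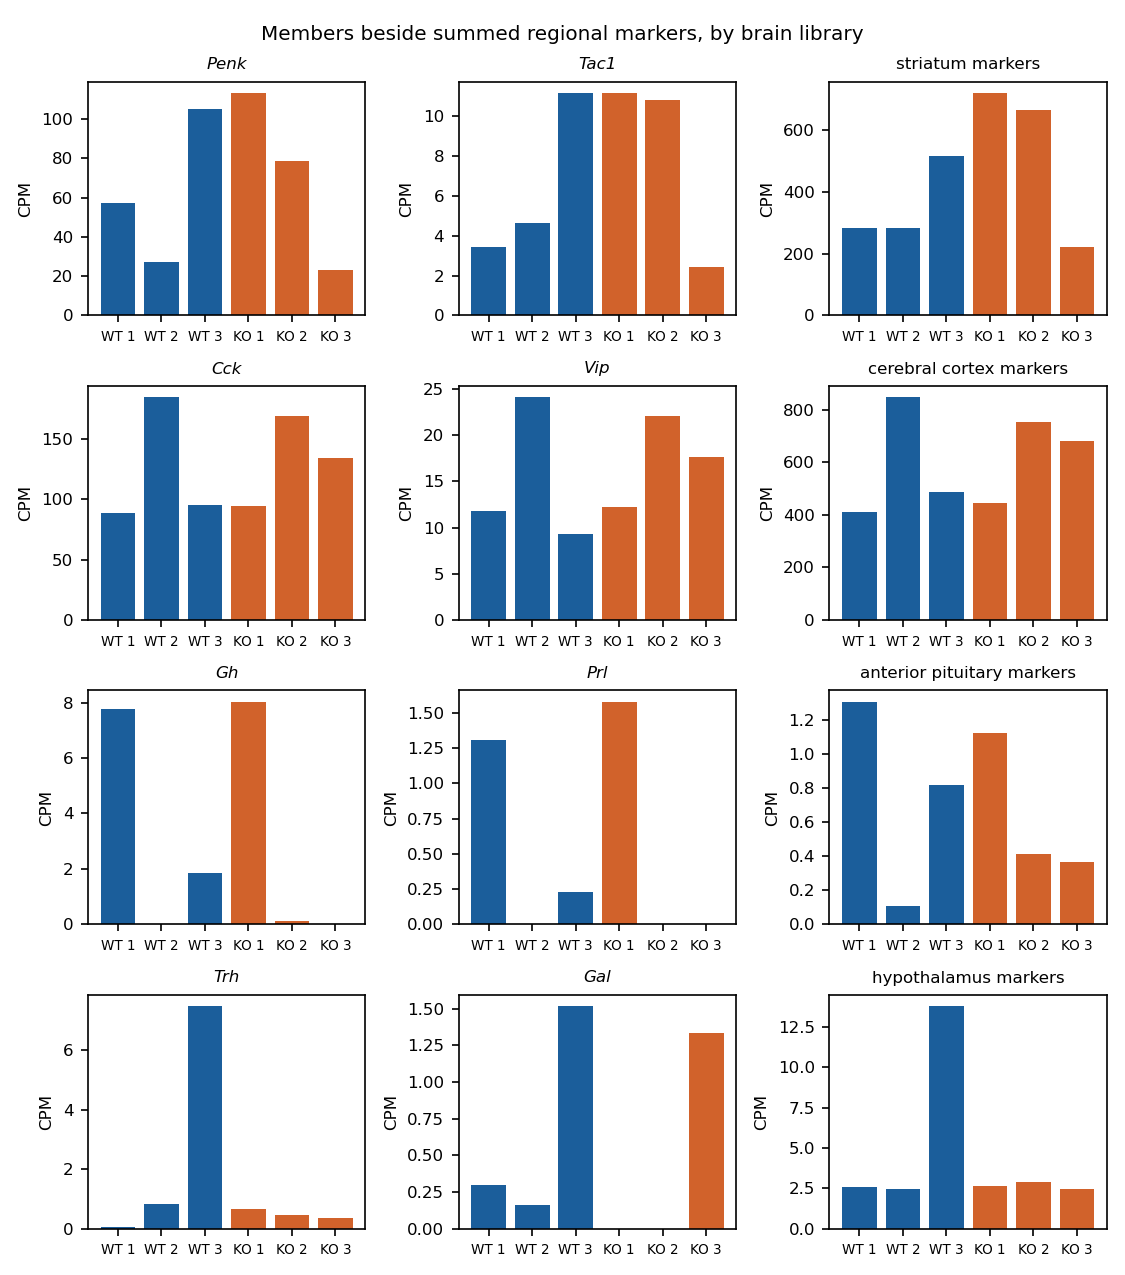
CPM of 8 list genes in the 6 brain libraries, each pair beside the summed CPM of the regional markers named at the right (blue, wild type; orange, knockout; each bar is 1 library). Penk and Tac1 are lowest in knockout replicate 3, as are the striatal markers; Cck follows the cortical markers; Gh and Prl are high in both replicates numbered 1; and Trh is high in wild-type replicate 3 only.

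Pituitary hormones appeared in some libraries only. Gh, the growth hormone gene, had 131, 0 and 32 counts in wild-type brain replicates 1 to 3 and 122, 2 and 0 in the knockout. Prl, the prolactin gene, had 22, 0 and 4 counts in wild-type mice and 24, 0 and 0 in the knockout. Both genes were high in replicate 1 of either genotype, intermediate in wild-type replicate 3 and nearly absent elsewhere. Of 12 anterior pituitary markers, 10 stayed at or below 3 counts in every brain library and 2 were at 0 in all. Their sum ran from 0.110 to 1.31 CPM and was highest in the replicates numbered 1 as well; Tshb, the thyrotropin subunit, contributed 9 and 7 counts there. Pomc, the precursor of ACTH and endorphin, which both pituitary and hypothalamus make, had 15, 8 and 13 counts in wild-type mice and 27, 7 and 8 in the knockout. The part of attached pituitary tissue in these levels was not tested.

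Several peptides of small neuron groups in the hypothalamus or brainstem were at or near 0. At no more than 3 counts in any brain library were 7 genes: Oxt (oxytocin), Pmch (melanin-concentrating hormone), Hcrt (orexin), Agrp, Ghrh, Ucn and Rln3. Avp, the vasopressin precursor, had at most 4 counts, Kiss1 at most 3.20 and Gnrh1 at most 8. A level of 3 counts corresponds to 0.162 to 0.202 CPM in these libraries, so lower levels were not measurable at this depth. Kiss1 shares exons on the same strand with Golt1a, and Avp and Oxt had fractional counts in wild-type replicate 3, so these few reads are of uncertain origin. Of 14 hypothalamic markers, 6 were at or below 3 counts in every brain library, 2 of them at 0 throughout. The marker sum was 2.48 to 2.89 CPM in all brain libraries except wild-type replicate 3, where it was 13.8 CPM.

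Wild-type replicate 3 was also the highest library for Trh, the precursor of thyrotropin-releasing hormone. Trh had 1, 15 and 128 counts in wild-type replicates 1 to 3 and 10, 8 and 6 in the knockout. Irs4, a marker of the hypothalamic list, had 93 counts in that library and 1 to 10 in the others. Gal, the galanin precursor, had 5, 3 and 26 counts in wild-type mice and 0, 0 and 22 in the knockout, so that both replicates numbered 3 were high although the hypothalamic marker sum was high in only the wild-type library. The highest library was wild-type replicate 3 for 6 of the 23 genes (26.1%), against 19.97% of all genes. These were Tac1, Scg2, Chga, Nts (neurotensin; 3.32 CPM against 0.886 to 1.84 elsewhere), Crh (corticotropin-releasing hormone; 4.55 against 1.31 to 2.48) and Pnoc (nociceptin; 4.61 against 1.38 to 3.08). The part of hypothalamic tissue in these levels was not tested.

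Knockout replicate 1 was the lowest library for 6 of the 23 genes (Grp, Cartpt, Tac2, Nmb, Pnoc and Scg5), and for 15.5% of all genes. Grp, the gastrin-releasing peptide precursor, had the widest ratio of the 23 genes, 5.94: it was at 2.49, 4.02 and 2.97 CPM in wild-type mice and 0.856, 4.49 and 5.09 CPM in the knockout, so that knockout replicate 1 was low and the ratio was 2.04 without it. Cartpt, the CART peptide precursor, spanned 1.45 to 3.51 CPM and Tac2, the neurokinin B precursor, 1.25 to 3.36 CPM. Nmb, the neuromedin B precursor, spanned 0.658 to 1.57 CPM. Over the 23 genes the median ratio of highest to lowest library was 2.16, and 14 genes, or 60.9%, exceeded 2, against a median of 1.54 and 29.0% over the 18767 genes of any level. Without knockout replicate 3 the median was 2.09, and the ratio was 4.18 for Penk and 3.25 for Tac1. Leaving out another library lowered the ratio of Pomc to 2.15 (knockout replicate 1) and that of Nts to 2.08 (wild-type replicate 3). Either of a pair of libraries lowered those of Crh (1.90 without wild-type replicate 3, 2.28 without wild-type replicate 1) and Pnoc (2.16 without knockout replicate 1, 2.23 without wild-type replicate 3). The lowest library was wild-type replicate 1 for 10 of the 23 genes, and for 20.7% of all genes.

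**Figure D3:**
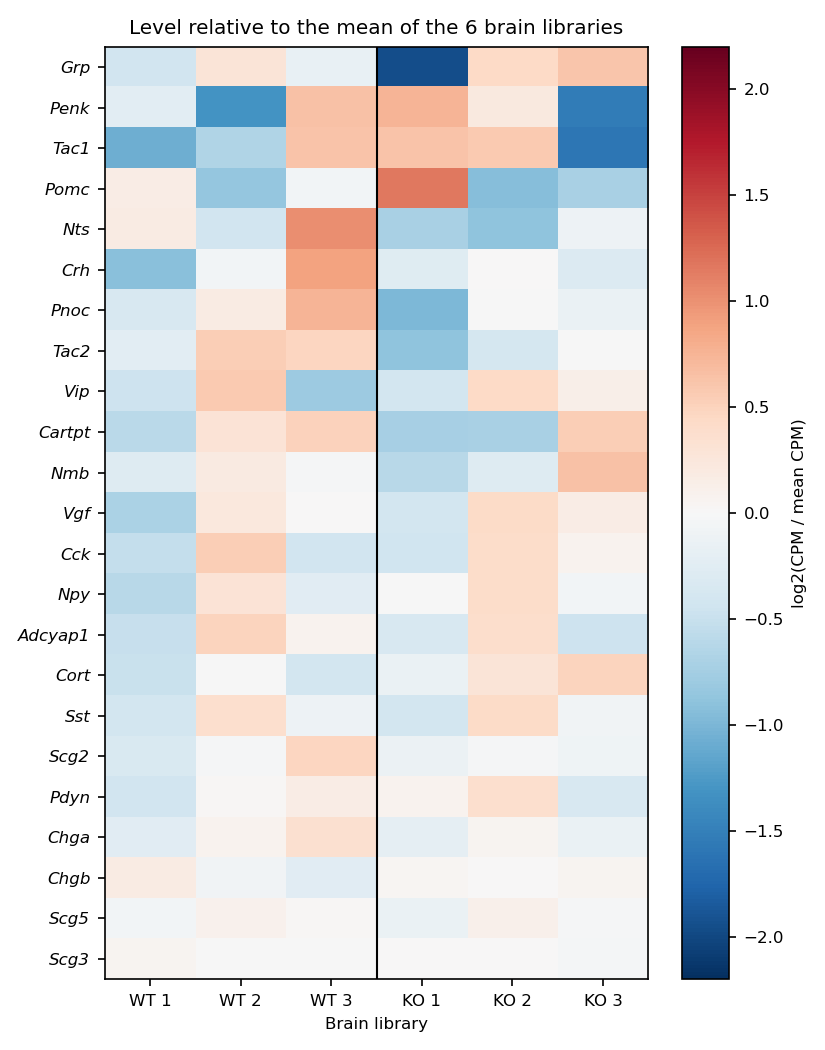
Level of the 23 list genes with at least 3 counts in every brain library, as log2 of CPM over the mean of the 6 libraries (columns, 3 wild type then 3 knockout; red, above the mean; blue, below). Genes are ordered from the widest ratio of highest to lowest (Grp, 5.94) to the narrowest (Scg3, 1.07), and for Cck, Sst and Vgf the columns numbered 2 are red in both genotypes.

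To ask whether loss of Vaultrc5 changed these genes in brain, knockout and wild type were compared with the edgeR quasi-likelihood test over 18075 genes. None of the 25 list genes that passed the low-count filter was called at an adjusted p under 0.05, against 0% of all genes tested, and none had an unadjusted p under 0.05, against 0.675% of all. Over all genes that share was far below the threshold of 0.05, so this fit was conservative and the absence of list genes there says little. With the replicate number added to the fit (replicate block), again none was called. In that fit 4 of the 25 (16%) had an unadjusted edgeR p under 0.05, against 2.25% of all genes. In the main fit the log2 fold changes were positive for 13 and negative for 12, but 18 of the 25 changed sign when some single library was left out. Their median was 0.04, and the median absolute value was 0.21, against -0.01 and 0.10 over all genes. Between libraries of the same number, the 3 log2 ratios of knockout over wild type were all positive for Vgf (0.28, 0.19 and 0.15), Npy, Cort and Sst. All 3 were negative for Nts, Tac2 and Pnoc. Signs were mixed for the other list genes with at least 3 counts in every brain library. Vgf and Sst were among the 18 all the same. The share of all genes with 3 agreeing signs was not computed. CPM ranges of the 2 genotypes overlapped for all 23 genes with at least 3 counts in every brain library, where 4.48% of all such genes did not overlap (1.72% with the knockout higher, 2.76% lower). Without knockout replicate 3, 26 list genes were tested and again none was called, nor had any an unadjusted edgeR p under 0.05. The ranges then did not overlap for 4 of the 23 (Nts, Tac2, Cartpt and Nmb, all lower in the knockout), against 9.56% of all genes. The 12 genes not tested were Avp, Oxt, Pmch, Hcrt, Agrp, Ghrh, Gnrh1, Kiss1, Rln3, Ucn, Gal and Prl.

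The smallest unadjusted p-values belonged to Nts, Tac2, Trh, Cort, Pnoc and Npy, all with an edgeR adjusted p of 1.00. Nts was at 1.84, 1.21 and 3.32 CPM in wild-type mice and 0.988, 0.886 and 1.51 in the knockout, a log2 fold change of -0.89 ± 0.45 (SE). The unadjusted edgeR p was 0.0876. Without wild-type replicate 3 it was -0.42, and without knockout replicate 3, the library with pancreatic markers, -1.17. Tac2 averaged 2.84 ± 0.768 CPM in wild-type and 1.77 ± 0.525 in knockout brain (SD, n = 3). Its log2 fold change was -0.66 ± 0.33, with an unadjusted edgeR p of 0.0889. The value for Trh, -2.46 ± 1.32, rested on a single library, since it was 0.15 without wild-type replicate 3. Cort averaged 0.954 ± 0.176 CPM over the wild-type and 1.37 ± 0.294 over the knockout brain libraries (SD, n = 3). Its log2 fold change was 0.53 ± 0.31, and 0.37 without knockout replicate 3. Pnoc had -0.56 ± 0.38, which was -0.24 without wild-type replicate 3 and -0.32 without knockout replicate 1. Npy had 0.27 ± 0.24, which was 0.08 without wild-type replicate 1, 0.55 without wild-type replicate 2 and 0.13 without knockout replicate 2. Tac2 was -0.90 and Npy 0.35 without knockout replicate 3.

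The precision differed between the groups of genes. For the granin family the standard error was 0.08 for Scg3 (log2 fold change -0.01), 0.10 for Scg5 (-0.03), 0.13 for Chgb (0.08), 0.16 for Chga (-0.15), 0.20 for Scg2 (-0.15) and 0.29 for Vgf (0.21). For the striatal precursors it was 0.65 for Penk (0.18) and 0.64 for Tac1 (0.34), and for Gh it was 1.79 (-0.25). Sst (0.04 ± 0.27), Cck (0.12 ± 0.33) and Vip (0.21 ± 0.39) lay between. With all 6 libraries the interval of ± 1 SE included 0 for each gene named in this paragraph. Without knockout replicate 3 the log2 fold change was 0.61 ± 0.54 for Penk, 0.78 ± 0.50 for Tac1 and 0.34 ± 1.81 for Gh, and it was -0.86 ± 0.40 for Cartpt against -0.30 ± 0.46 with it. Grp and Nmb turned from 0.15 and 0.05 to -0.24 and -0.41. Penk also turned without wild-type replicate 2 (-0.17) or knockout replicate 1 (-0.31). Gh was 1.54 without wild-type replicate 1, 0.33 without knockout replicate 2 and -5.57 without knockout replicate 1. Tac1 ran from 0.05 (without wild-type replicate 1 or knockout replicate 1) to 1.01 (without wild-type replicate 3). Scg2 (0.10), Chga (0.00), Chgb (-0.01), Vip (-0.05), Cck (-0.04) and Sst (-0.01) turned without wild-type replicate 3. Without wild-type replicate 2, in contrast, Vip was 0.72, Cck 0.54 and Sst 0.29. Cck and Sst also turned without wild-type replicate 1 or knockout replicate 2. Vgf turned to -0.02 without wild-type replicate 1, and was 0.41 without wild-type replicate 2 and 0.03 without knockout replicate 2.

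**Figure D4:**
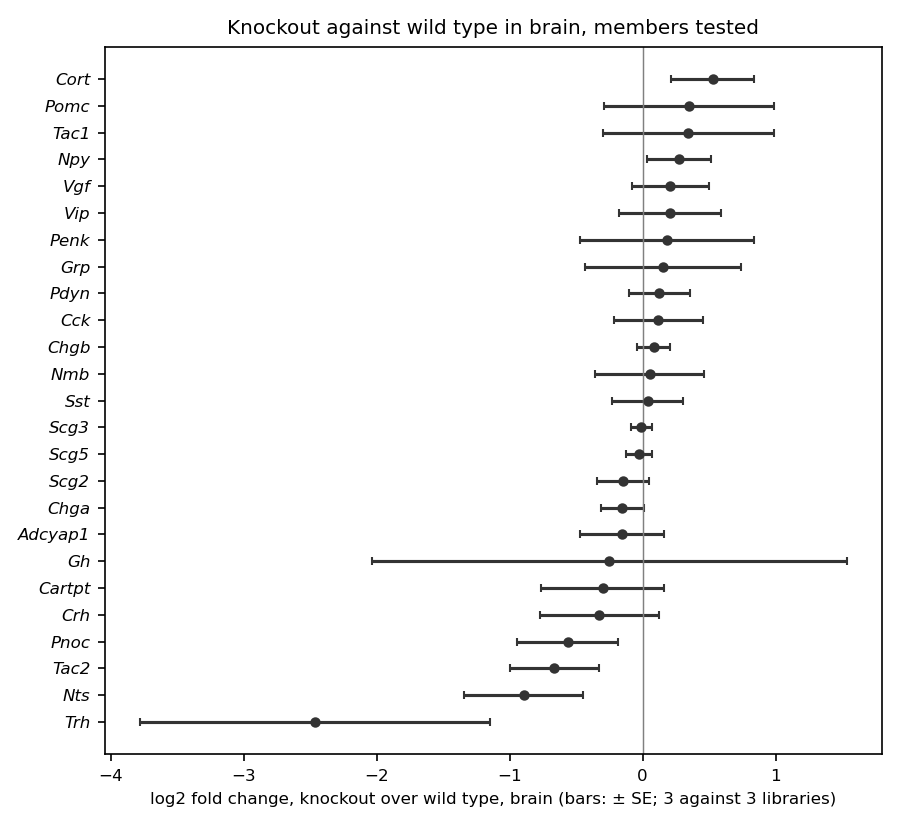
log2 fold change of knockout over wild type in brain for the 25 list genes tested, with bars of ± 1 SE from the edgeR fit (3 against 3 libraries). No gene was called; Scg3 (SE 0.08) has the shortest bar and Gh (SE 1.79) the longest.

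In liver no gene of the list passed the low-count filter, so the main fit tested none of them for a knockout effect in that tissue. In that fit, which was unpaired, 0 of the 15329 liver genes tested (0%) were called, and 3.5% had an unadjusted edgeR p under 0.05. The replicate block, an alternative fit that pairs libraries of the same number, called 2 genes of the whole table. It left 6.41% under that unadjusted p, with none of the list tested. All 6 liver libraries had 0 counts for 22 of the 37 genes, and 12 more never exceeded 3 counts. The exceptions were Gnrh1 (4, 10 and 7 counts in wild-type and 4, 8 and 3 in knockout liver), Nmb (4, 6 and 3, then 2, 3 and 6) and Pomc (2, 0 and 2, then 1, 5 and 0). With all genes of at least 1 count in the fit, the liver list genes had edgeR adjusted p-values of at least 0.898. The test of whether the knockout effect differed between tissues called 0 of 25 list genes and 0% of the 20141 genes in the edgeR fit, with no list gene and 2.43% of all genes under an unadjusted p of 0.05; the liver side of this test had almost no counts for the list genes.

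Brain and liver were then compared within each genotype, to place these genes against the tissue difference. In the wild type, 22 list genes passed the filter and all 22 were higher in brain, against 43.9% of the 18850 genes tested (78.6% called in either direction; 79.8% with an unadjusted p under 0.05). In the knockout, which shares no library with the first comparison, 22 of 22 were higher (22 of 23 without knockout brain replicate 3), against 43.5% of 18785 (78.7% in either direction; 80% unadjusted). Genes of this list passed the filter through brain alone, so the count describes where they are expressed and is no separate support. For a gene with 0 counts in all liver libraries of a genotype, only a lower bound can be given, set here by a floor of 3 counts per liver library and counts per library total. On that scale Chgb was at least 1700.5-fold higher in wild-type brain than in liver and at least 1757-fold higher in the knockout. The bounds for Vgf were 1074 and 1209, for Cck 1025 and 1087, and for Chga 786 and 689.6. Scg3 was at least 1699.5-fold higher in the wild type. Scg5 had 2 counts in wild-type liver, a ratio of 3795 (95% exact binomial interval 1050.1 to 31346, counting error only), and was at least 803-fold higher in the knockout.

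Nmb was the list gene with the smallest difference of those tested. Its log2 fold change to brain was 1.67 ± 0.39 (SE) in the wild type (edgeR adjusted p = 0.00477) and 1.88 ± 0.57 in the knockout (adjusted p = 0.0167). With library totals these were 2.498 and 2.737. The knockout call was lost without knockout brain replicate 3 (1.40, adjusted p = 0.0718), without liver replicate 1 (1.54, 0.0665) or without liver replicate 2 (1.75, 0.0612). Nmb shares exon sequence on the same strand with Sec11a, a gene used in all cells, and the origin of its few liver counts was not tested. Gnrh1, the precursor of gonadotropin-releasing hormone, had too few counts for the filter. In the edgeR fit of all genes with at least 1 count, its log2 fold change to brain was -1.03 ± 0.69 (SE) in the wild type (adjusted p = 0.236) and -0.24 ± 0.70 in the knockout (adjusted p = 0.775). By library totals the ratio of brain to liver counts was 0.829 and 1.52, with 95% exact binomial intervals of 0.372 to 1.76 and 0.695 to 3.35 that cover counting error only.

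The machinery that makes and reads these peptides was examined through lists of genes. None of their genes was called between the genotypes in brain: of the 13 processing enzymes tested 0 were called, of 15 dense-core vesicle genes 0, of 37 receptors 0, of 11 peptidases 0 and of 5 other peptide precursors 0, against 0% of all genes, and none had an unadjusted edgeR p under 0.05 (0.675% of all genes), with or without knockout replicate 3. Median log2 fold changes were 0.01, -0.01, -0.11, -0.01 and -0.17 in that order. In liver 11, 10, 9, 10 and 3 of these genes were tested and none was called. The receptor with the smallest p in brain was Nmbr, the neuromedin B receptor, at 2.04 ± 1.39 CPM in wild-type and 0.963 ± 0.200 in knockout brain (SD, n = 3). Its log2 fold change was -1.07 ± 0.51 (SE) with an unadjusted edgeR p of 0.0758, and -0.34 without wild-type replicate 2. Adcyap1r1, the PACAP receptor, had -0.25 ± 0.14. Among vesicle genes Baiap3 was at 8.07 ± 9.36 CPM in wild-type mice and 3.28 ± 1.17 in the knockout (log2 fold change -1.28 ± 0.84). It was at 18.8 CPM in wild-type replicate 3, without which the value turned to 0.305. Pcsk7 (0.18 ± 0.12) and Cpd (-0.14 ± 0.13) led the processing enzymes, Prep (-0.15 ± 0.10) and Ece1 (0.22 ± 0.15) the peptidases, and Adm (-0.64 ± 0.46) and Apln (-0.28 ± 0.21) the other precursors. Ica1, a vesicle gene, had 0.15 ± 0.12. Without wild-type replicate 3 the values were -0.14 for Adcyap1r1, -0.01 for Cpd, -0.09 for Prep, -0.13 for Adm and -0.11 for Apln, and without knockout replicate 3 Apln had -0.18. Other single libraries moved Pcsk7 to 0.09 and Ece1 to 0.13 (both without knockout replicate 1), Ica1 to 0.08 (without wild-type replicate 1) and Prep to -0.08 (without knockout replicate 2).

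Between the tissues, 6 of the 14 processing genes tested in the wild type were higher in brain and 8 in liver (edgeR), against 43.9% and 34.7% of all genes. In the knockout 5 of 13 were higher in brain and 7 in liver, against 43.5% and 35.2% of all genes, but 6 and 4 with library totals in place of TMM. Pcsk2 was at 391 ± 119 CPM in brain and had at most 1 count in a liver library, Pcsk1n (the proSAAS inhibitor of Pcsk1) was at 253 ± 32.4 CPM against at most 3 counts, and Cpe was at 859 ± 161 against 1.14 ± 0.515 CPM (SD, n = 3). Pcsk1 was at 50.1 ± 13.9 CPM in brain and had 0 counts in the wild-type livers. Furin, a convertase of the constitutive secretory route, was at 41.2 ± 6.53 CPM in brain and 299 ± 5.28 in liver, a log2 fold change to brain of -3.72 ± 0.15 (SE; edgeR adjusted p = 3.22e-07), which was -2.87 with library totals. Cpe, Pcsk1 and Furin were named after their values were seen. With library totals in place of TMM, which moved the median of all genes from 0.21 to 1.05 and the split of their calls to 11635 higher and 3997 lower in brain (8275 and 6542 with TMM), the processing list had 6 higher in brain, 6 in liver and 2 not called, Pcsk7 and Pcsk5.

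Of all genes tested in the wild type, 43.9% were higher in brain and 34.7% in liver. Of 16 dense-core vesicle genes, 15 were higher in brain, with Cadps, a priming factor of vesicle release, at 378 ± 51.4 CPM and Syt4 at 207 ± 17.3 CPM in wild-type brain (SD, n = 3) and at most 2 counts in any liver library. The exception was Sytl4 (log2 fold change -2.97 ± 0.43 SE), named after its value was seen. The low-count filter in liver was passed by 10 of the vesicle genes and 9 of the receptors, so that many entered this comparison through brain alone and could only be higher there. Of 35 receptors tested, 30 were higher in brain, among them Ntsr2 (neurotensin receptor; 58.5 ± 7.40 CPM) and Cckbr (cholecystokinin B receptor; 36.3 ± 13.0 CPM), each with at most 1 count in a liver library. The 4 higher in liver, named after their values were seen, were the growth hormone receptor Ghr (633 ± 73.2 CPM in liver, 11.3 ± 1.14 in brain), the prolactin receptor Prlr (122 ± 30.5 and 8.60 ± 9.82), the vasopressin receptor Avpr1a (23.0 ± 2.24 and 0.290 ± 0.256) and Vipr1. The call for Vipr1 was lost with library totals (edgeR adjusted p = 0.0524). The peptidases had 4 higher in brain, with Ece2 at 28.9 ± 11.8 CPM there and at most 1 count in a liver library, and 7 higher in liver, with Dpp4 at 133 ± 7.83 CPM in liver and 4.33 ± 1.29 in brain. With library totals 5 remained higher in liver, and Prep and Nln were not called. Among 26 other peptide precursors and pituitary glycoprotein hormones 5 were tested, and Nppc (2.87 ± 0.729 CPM) and Apln (21.8 ± 4.84 CPM) were higher in brain. With library totals 4 of the 5 were.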

How the data were processed

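The authors deposited 1 table of expected counts, with a row for each gene and a column for each of the 12 libraries. Per the submitters' processing notes the tools were cutadapt and STAR with mm10; the counting tool, its version and its use of strand are not given in the sources used here. Between 5.06% and 5.71% of the values were not whole, as where reads shared by genes are split. TRIzol extraction, DNase I, a stranded rRNA-depleted preparation and single-end reads are given per the labels' protocols.

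Counts were rounded and tested with the edgeR 4.0.16 quasi-likelihood F-test in R 4.3.3 (robust; TMM; filterByExpr with minimum count 10 and total 15; Benjamini-Hochberg over all genes, threshold 0.05), on the 6 libraries of each comparison or all 12 for the interaction. Symbols, loci and exon lengths came from GENCODE M21. Every pair of replicates differed beyond sampling noise (chi-square per degree of freedom at least 27.2), so none was merged. The fits were also run on simulated counts with planted changes. Those counts held no regional differences between libraries, so that run says nothing about the fits where such differences exist. The members and all gene lists were chosen with earlier results of these data known. Genes named were all members for levels, the 6 with the smallest p for genotype, and up to 4 per other list. For tissue they were the 5 with the largest fold change plus any above 3 counts in every library of a liver group. Nmb, and Scg5 in the wild type, were added after their values were seen. Same-numbered wild-type and knockout libraries correlated at 0.23, 0.24 and 0.30 in liver and at 0.59, 0.59 and -0.01 in brain. Correlations between libraries of different number were not computed. The labels state no pairing, so the main fits in both tissues were unpaired, and the replicate block was run as an alternative only. Alternatives were DESeq2 1.42.0 size factors or its Wald test, library totals, 2 other filters, a threshold of 0.1, a joint fit of the 12 libraries, the replicate block, and leaving out each library in turn.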

Additional observations from a re-analysis of the deposited data

How the results depend on the processing

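No list gene was called between genotypes in brain, in the interaction or as higher in liver than brain under any alternative tried; in the liver knockout comparison list genes were tested only without a low-count filter (15) or with all libraries fitted jointly (25), so the other 0 counts there carry no information. The number higher in brain was 22 to 25 in the wild type and 18 to 23 in the knockout, lowest with a filter of 1 CPM on the mean. Of the 6 genes named for the brain knockout comparison, Trh reversed: its log2 fold change ran from -3.03 to 0.15 with 1 library left out, the last without wild-type replicate 3. Of all 25 list genes tested there, 18 changed sign with some library left out, between 3 and 8 for any 1 library; Grp and Nmb did so with the replicate block, and none with another scaling, filter or test. With the replicate block, 0 of 25 list genes were called in brain (edgeR adjusted p at least 0.996) and 4 (16%; Vgf, Nts, Tac2 and Npy) had an unadjusted p under 0.05, against 406 of all genes (2.25%), 5 of 37 receptors (13.5%) and 1 of 11 peptidases (9.09%); in liver the block called 2 genes of the whole table, none from the list, and in the interaction 2. The count of all genes called in liver was 10 with the DESeq2 Wald test, 4 without a low-count filter, and 0 to 1 with 1 library left out; in the interaction the Wald test called 1. The median spread over brain libraries, 2.16, ran from 1.96 to 2.16 with 1 library left out. Depth limits the 7 genes at or below 3 counts in brain, and 34 genes in liver. With 3 libraries in a group, no outlier test was made.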
